A study of Bos taurus with 11 samples.

Results

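The genes described here code for the chaperones and disulfide isomerases of the endoplasmic reticulum (ER): HSPA5, HSP90B1, CALR, CANX, PDIA3, PDIA4, PDIA6, DNAJB9, DNAJC3 and SDF2L1. They were chosen by gene symbol, as every array probe carrying 1 of these 10 names, which gave 28 probes of the 43653 on the array, and each probe was read apart. RNA came from peripheral blood mononuclear cells (PBMCs), the lymphocytes and monocytes of blood, of 11 female cattle. The 5 Ladakhi animals are native cattle of a high-altitude region, and the 6 Sahiwal animals come from a low-altitude arid or semi-arid region. The labels call the Sahiwal samples basal, a word that the Ladakhi labels lack and that is not explained. Beyond this they name no treatment, age or time point for either group and give no genotype beyond the breed. Each animal was hybridised to its own single-colour Agilent bovine array, and the comparison asks how blood cell transcripts differ between the high-altitude and the low-altitude breed.

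Proteins that are secreted or placed in a membrane are threaded into the ER as they are made, and they fold there with the help of these genes' products. HSPA5 (BiP) holds unfolded chains in cycles of ATP binding that DNAJ cochaperones drive, calreticulin (CALR) and calnexin (CANX) hold sugar-bearing glycoproteins, and the PDI enzymes form and rearrange disulfide bonds. In blood, antibody-secreting plasma cells are known for high levels of the whole set, and many of these genes are induced together by the unfolded protein response.

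Breed and altitude coincided with the way the arrays were read, so these cannot be told apart. The Ladakhi arrays were read on an Agilent scanner and the Sahiwal arrays on an Axon GenePix scanner, with different versions of the extraction software, and no slide held both breeds. Between 4243 and 6608 spots were well above background on the Ladakhi arrays and between 17517 and 20574 on the Sahiwal arrays. Levels are log2 processed signals relative to the 75th percentile, in the same array, of the 2576 probes detected on all 11 arrays, and they compare animals within a probe, not probes with each other. On that scale the dimmest detected probe of a Ladakhi array lay at -3.50 on average (range -4.14 to -2.95), and that of a Sahiwal array at -8.10. A probe counted as measured when 4 or more arrays of both Ladakhi and Sahiwal animals detected it, that is, showed it well above background. This held for 4032 probes. Differences are Ladakhi minus Sahiwal, tested with limma and Benjamini-Hochberg adjustment over 17863 probes, at an adjusted p threshold of 0.05. The number of animals limits the precision, and since the labels number the samples without saying more of their origin, p-values measure the spread between these samples alone.

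The labelled cell type was checked against markers. Of 7 T cell markers on the array, 5 were detected on at least 4 Ladakhi arrays and 7 on at least 4 Sahiwal arrays. For B cells the counts were 3 and 5 of 7, and for monocytes 2 and 6 of 7. Of 7 neutrophil markers, MPO, ELANE, CATHL2 and CXCR2 were detected in neither breed, S100A12 in both, and CSF3R and LTF in Sahiwal only, and the summed linear level of the list was 1.55 to 3.86 for Ladakhi and 2.77 to 8.44 for Sahiwal animals. The platelet gene PF4 and the red cell gene HBB were also detected in both breeds. Over all spots, a mean of 12.3% were well above background on Ladakhi and 43.0% on Sahiwal arrays. By their brightest probes, LTF, CD14, CD68 and VCAN had Sahiwal means below the average Ladakhi limit of -3.50. CSF3R (-2.52) and the monocyte gene FCN1 (1.08) lay above it. Of 5 plasma cell markers, IGJ and PRDM1 were detected in both breeds and SDC1 in neither, and the summed linear level of the list lay between 0.390 and 1.24 in Ladakhi animals and between 0.569 and 1.31 in Sahiwal animals. The summed level of the monocyte list was 0.911 to 4.55 for Ladakhi and 3.31 to 8.87 for Sahiwal animals. T cell and cytotoxic lists lay the other way, at 4.56 to 7.96 and 0.851 to 2.40 for Ladakhi against 2.08 to 5.05 and 0.287 to 1.27 for Sahiwal animals. The part of these lists in the values below was not tested. In bulk samples such as these, fewer cells of a type and less RNA per cell cannot be told apart.

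Where on a transcript a probe lies matters for what follows, so the probes at the centre of the results are shown here. They are given 5′ to 3′ as printed on the array, with coordinates on HGSC Btau_3.1 from the scanner files. The files do not mark exons or UTRs. The set begins with the upstream probes of HSPA5, CALR and PDIA6 and the inner probe of HSPA5, of which those farthest upstream were seen in Sahiwal and not, or on a single array, in Ladakhi animals. In the PDIA6 pair, at chr11:89617936-89617995 and chr11:89617962-89618021 on the plus strand, the capitals mark the 34 bases both probes hold.
PDIA6 A_73_P329651: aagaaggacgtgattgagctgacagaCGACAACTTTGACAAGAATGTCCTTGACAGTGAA
PDIA6 A_73_P106326: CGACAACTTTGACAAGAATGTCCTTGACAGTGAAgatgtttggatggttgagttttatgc
HSPA5 A_73_P400026, chr11:99546701-99546760, minus strand: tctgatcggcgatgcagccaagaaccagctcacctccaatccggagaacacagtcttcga
HSPA5 A_73_P210427, chr11:99544070-99544547, minus strand: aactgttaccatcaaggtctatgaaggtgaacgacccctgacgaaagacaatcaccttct
HSPA5 A_73_P038581, chr11:99543579-99543638, minus strand: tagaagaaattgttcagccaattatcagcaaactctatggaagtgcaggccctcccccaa
CALR A_73_P387091, chr7:10885510-10885659, minus strand: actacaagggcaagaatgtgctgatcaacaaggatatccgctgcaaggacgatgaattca
CALR A_73_P329471, chr7:10885455-10885514, minus strand: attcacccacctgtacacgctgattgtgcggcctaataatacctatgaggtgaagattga
CALR A_73_P043756, chr7:10884255-10884931, minus strand: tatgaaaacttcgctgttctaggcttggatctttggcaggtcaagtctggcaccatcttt

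The other set is the pair of CALR probes at the downstream end of the gene, which share 49 of their 60 bases but gave different breed differences. A_73_106913 lies at chr7:10883329-10883388 and A_73_P285466 at chr7:10883318-10883377, both on the minus strand, so that the second lies 11 bases closer to the end of the transcript. Only the bases that are not in the partner probe are printed, in capitals: the first of the one and the last of the other.
CALR A_73_106913, first bases: AGTTGGGGCAG
CALR A_73_P285466, last bases: TTCTATTAAAT

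Among the 10 genes, 5 had at least 1 probe measured in both breeds: HSPA5, HSP90B1, CALR, CANX and PDIA4, with 9 probes together. Of these 9 probes, 2 passed the test (22.2%), both of CALR, against 33.0% of all probes measured in both breeds. CALR A_73_P043756 was higher in Ladakhi (17.9% of all measured probes were), and CALR A_73_P285466 was lower (15.2% of all measured probes were). The higher probe had a Sahiwal mean under the Ladakhi detection limit and so could enter the measured set only by being higher in Ladakhi; of the other 8 measured probes, 1 passed. Their median difference was -0.13 on the log2 scale, beside -0.04 over all measured probes. The spread among animals was also like that of other probes, with a median SD of 0.54 in Ladakhi and 0.41 in Sahiwal, against 0.56 and 0.38 over all measured probes. PDIA3, DNAJB9, DNAJC3 and SDF2L1 had no probe detected on 4 or more Ladakhi arrays, and PDIA6 failed the criterion because 4 Sahiwal spots were flagged as outliers.

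**Figure D1:**
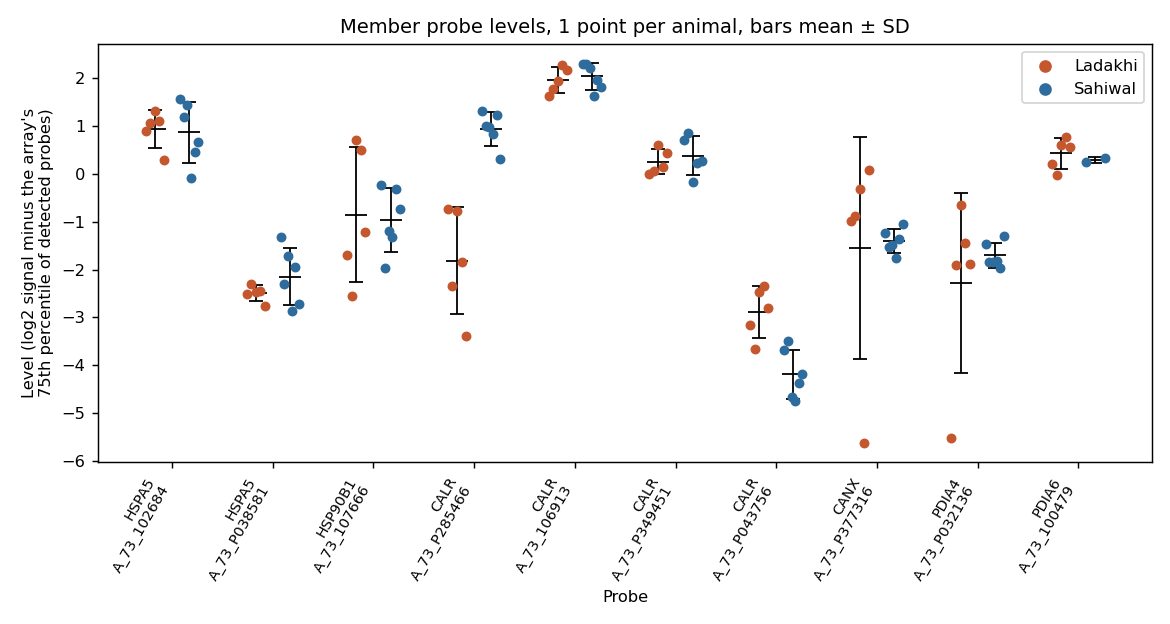
Level of the 9 probes measured in both breeds and of the downstream PDIA6 probe (vertical axis, log2 signal minus the array's 75th percentile of detected probes), with 1 point per animal and bars for the mean ± SD. The breeds overlap in every probe shown but CALR A_73_P285466, where the Sahiwal animals sit between 0.31 and 1.30 and the Ladakhi animals between -3.38 and -0.74; levels compare within a probe only.

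HSPA5 is the central ATP-driven chaperone of the ER lumen and the usual marker of ER stress. Its brightest probe, A_73_102684 (chr11:99543141-99543200, minus strand), read 0.90, 1.07, 1.32, 1.10 and 0.28 in Ladakhi animals 1 to 5, and from -0.09 over a median of 0.92 to 1.55 in the Sahiwal animals. The breeds overlapped throughout, Ladakhi 5 and Sahiwal 4 being the lowest of each. The difference was 0.07 (SE 0.34; Ladakhi 0.93 ± 0.40 SD, n = 5; Sahiwal 0.87 ± 0.64 SD, n = 6; limma adjusted p = 0.891). Its SE leaves room for a change of moderate size in either direction.

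The second HSPA5 probe, A_73_P038581, lies 438 bases upstream in the genome. It read -2.50, -2.29, -2.46, -2.44 and -2.76 in Ladakhi animals 1 to 5, and from -2.87 over a median of -2.12 to -1.32 in the Sahiwal animals. The Ladakhi animals lay close together, inside the wider Sahiwal range. This probe differed by -0.34 (SE 0.31, limma adjusted p = 0.388), within the spread between animals.

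HSP90B1 (GRP94) is the ER member of the HSP90 family and folds integrins and Toll-like receptors. Its only probe, A_73_107666 (chr5:72643879-72643938, plus strand), read -1.70, -2.56, 0.70, 0.50 and -1.22 in Ladakhi animals 1 to 5. Sahiwal animals ran from -1.97 over a median of -0.97 to -0.23. Ladakhi 3 and 4 stood above all Sahiwal animals and Ladakhi 2 below them. The difference was 0.11 (SE 0.55, limma adjusted p = 0.891), and the Ladakhi SD of 1.41 was larger than the Sahiwal SD of 0.66.

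CALR codes for calreticulin, the soluble lectin chaperone of glycoproteins and a calcium store of the ER lumen, and 4 of its 6 probes were measured in both breeds. The brightest, A_73_106913, read 1.62, 1.76, 1.94, 2.27 and 2.16 in Ladakhi animals 1 to 5, and from 1.62 over a median of 2.08 to 2.30 in the Sahiwal animals. Both breeds covered nearly the same range, and 1 Sahiwal spot was saturated, so that its value is a lower limit. The difference was -0.08 (SE 0.25, limma adjusted p = 0.819). A_73_P349451 (chr7:10883480-10883539), 162 bases upstream of the last probe, read -0.01, 0.06, 0.61, 0.13 and 0.44 in Ladakhi animals. Its 5 usable Sahiwal values ran from -0.18 over a median of 0.27 to 0.85, around the Ladakhi values. The spot of Sahiwal 1 was left out as an outlier spot, and the difference was -0.13 (SE 0.29, limma adjusted p = 0.749).

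The probe at the downstream end, CALR A_73_P285466, read -0.74, -2.35, -0.78, -1.85 and -3.38 in Ladakhi animals 1 to 5. In the Sahiwal animals it read from 0.31 over a median of 0.98 to 1.30. Every Ladakhi animal lay below every Sahiwal animal, a separation that 21.5% of all measured probes showed in 1 direction or the other. Its mean was 6.75-fold lower in Ladakhi (difference -2.75, SE 0.44; Ladakhi -1.82 ± 1.12 SD, n = 5; Sahiwal 0.94 ± 0.35 SD, n = 6; limma adjusted p = 0.00043). The call held in all 16 alternative analyses (differences from -2.91 to -2.01) and without each animal in turn.

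The inner probe CALR A_73_P043756, whose 60 bases the files place over 677 bases of genome, went the other way. It read -3.16, -3.66, -2.46, -2.35 and -2.80 in Ladakhi animals 1 to 5, and from -4.74 over a median of -4.27 to -3.50 in the Sahiwal animals. The ranges overlapped only at Ladakhi 2, the lowest of its breed. The difference was 1.30 (SE 0.33, limma adjusted p = 0.00686). The Sahiwal mean of -4.19 lay below the average detection limit of the Ladakhi arrays at -3.50, so at the Sahiwal level this probe could hardly have been measured in Ladakhi, and it was detected on 4 of 5 Ladakhi arrays. Its call is therefore given as a description and its size is not read.

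The 4 measured CALR probes therefore gave 3 different answers for 1 gene: no detectable difference at 2 of them, a lower level at the last probe and, with the limit just given, a higher one at the inner probe. The last probe and the brightest probe overlap, and the next comparison follows this pair within each animal. The pair was picked after its values were seen, so the difference is given without a test. The level of A_73_P285466 minus that of A_73_106913 was -2.35, -4.11, -2.72, -4.12 and -5.54 in Ladakhi animals 1 to 5. It ran from -1.50 to -0.73 in the 6 Sahiwal animals, and the breeds did not overlap. How often other overlapping pairs separated the breeds was not counted. The means were -3.77 ± 1.27 (SD, n = 5) and -1.09 ± 0.30 (SD, n = 6), which lie 2.67 apart on the log2 scale.

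**Figure D2:**
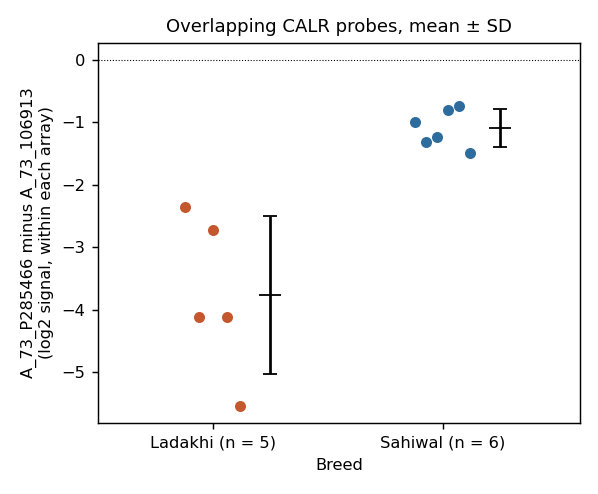
Signal of CALR probe A_73_P285466 minus that of the overlapping probe A_73_106913 in the same array (vertical axis, log2), with 1 point per animal and bars for the mean ± SD of each breed. The 5 Ladakhi animals sit between -5.54 and -2.35 and the 6 Sahiwal animals between -1.50 and -0.73, although the probes share 49 of 60 bases.

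Such a gap between overlapping probes was large but not singular. On the whole array, 247 pairs of measured probes of the same gene shared at least 30 bases, from 207 genes. Their breed differences lay a median of 0.61 apart, 66 pairs (26.7%) lay more than 1 apart, and the CALR pair ranked 10 by size, with 9 pairs (3.64%) farther apart. For CALR, the call thus differed between probes placed 11 bases apart.

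CANX, the membrane-bound partner of calreticulin, had 7 probes, none of which the files place on the genome. The brightest, A_73_P377316, read -0.99, -0.89, -0.31, -5.63 and 0.08 in Ladakhi animals 1 to 5, and from -1.76 over a median of -1.42 to -1.04 in the Sahiwal animals. Ladakhi 4 was not well above background, and its -5.63 is the surrogate value that dim spots share on its array, not a measured level. The remaining Ladakhi animals lay above all Sahiwal animals. The difference was -0.14 (SE 0.78, limma adjusted p = 0.897) over all animals. With dim signals set at the detection limit of their array it was 0.32 (adjusted p = 0.538). Without Ladakhi 4 it was 0.88 (limma adjusted p = 0.0327), higher in Ladakhi, so this single animal set both the direction and the call.

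A further CANX probe, A_73_P031301, was detected on 3 of 5 Ladakhi arrays. It read -4.81, -3.89, -3.30, -3.09 and -2.48 in Ladakhi animals 1 to 5, and from -2.72 over a median of -2.46 to -2.07 in the Sahiwal animals. Only Ladakhi 5 lay inside the Sahiwal range. The difference was -1.09 (SE 0.37, limma adjusted p = 0.0284). The call was lost in turn without Ladakhi 1, Ladakhi 2, Sahiwal 1 and Sahiwal 6 (limma adjusted p from 0.0524 to 0.0725). It was also lost under quantile normalization (limma adjusted p = 0.122), cyclic loess (adjusted p = 0.203), normexp (adjusted p = 0.886) and the replicate block (adjusted p = 0.0718). The other 5 CANX probes were well above background on no Ladakhi array.

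Among the disulfide isomerases, PDIA4 (ERp72) acts with HSPA5 and HSP90B1 in large chaperone complexes. Its downstream probe, A_73_P032136 (chr4:116504876-116504935, minus strand), read -5.52, -1.89, -0.65, -1.44 and -1.88 in Ladakhi animals 1 to 5. Sahiwal animals ran from -1.97 over a median of -1.82 to -1.30. Ladakhi 1 stood alone far below, at the surrogate value that dim spots share on its array. The other Ladakhi animals lay inside the Sahiwal range or, in Ladakhi 3, above it. The difference of -0.57 (SE 0.64, limma adjusted p = 0.499) turned to 0.24 without Ladakhi 1 (adjusted p = 0.572). With dim signals set at the detection limit of their array it was -0.11 (adjusted p = 0.802).

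PDIA6 (P5) reduces and shuffles disulfides in partnership with HSPA5. Its downstream probe, A_73_100479 (chr11:89626577-89626636, plus strand), read 0.21, -0.03, 0.61, 0.77 and 0.56 in Ladakhi animals 1 to 5. Only Sahiwal 3 and 4 had usable spots, at 0.25 and 0.34, inside the Ladakhi range. The fit on those values gave 0.13 (SE 0.39, limma adjusted p = 0.813). With the 4 outlier spots kept, the difference was -0.10 (adjusted p = 0.780), so that neither version showed a difference beyond the spread.

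PDIA3 (ERp57) is the isomerase that calreticulin and calnexin recruit, and a part of the MHC class I loading complex. Its single probe, A_73_117337 (chr21:55863345-55863405, plus strand), read -4.10, -5.26, -2.80, -2.33 and -2.51 in Ladakhi animals 1 to 5, and from -2.60 over a median of -2.28 to -1.94 in the Sahiwal animals. It was detected on 3 Ladakhi arrays, and Ladakhi 1 and 2 were the lowest, Ladakhi 2 at the surrogate value of dim spots on its array. The difference of -1.13 (SE 0.46) did not pass the test (limma adjusted p = 0.0615). It would pass without Ladakhi 4 (adjusted p = 0.0301) or Ladakhi 5 (adjusted p = 0.0377), with the slide as a random block (-1.18, adjusted p = 0.0178), without the filter on dim probes (adjusted p = 0.0299) and in the deposited value table (-1.28, adjusted p = 0.0401). By contrast, it was -0.49 once dim signals were set at the detection limit of their array (adjusted p = 0.0908). In the slide block the correlation within slides was estimated at -0.11. With no slide holding both breeds, a negative value makes passing easier. That setting called 893 measured probes higher and 843 lower, beside 720 and 612 without it. The same limit holds wherever the slide block is named below.

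The cochaperones were detected on 3 or fewer Ladakhi arrays. DNAJC3 (P58IPK), a J-domain partner of HSPA5, was detected on 3 of them with A_73_108493 (chr12:70771519-70771578, plus strand). It read -4.24, -3.24, -0.82, -2.15 and -1.19 in Ladakhi animals 1 to 5, and from -3.13 over a median of -2.05 to -1.85 in the Sahiwal animals. Ladakhi 3 and 5 stood above all Sahiwal animals and Ladakhi 1 and 2 below them, for a difference of -0.12 (SE 0.53, limma adjusted p = 0.872).

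SDF2L1, which keeps HSPA5 cycling on its clients together with ER J proteins, was detected on 2 Ladakhi arrays. Its probe, A_73_P033746 (chr17:75471499-75471558, minus strand), read -5.36, -5.26, -3.28, -3.52 and -3.67 in Ladakhi animals 1 to 5, and from -4.45 over a median of -3.82 to -3.41 in the Sahiwal animals. Ladakhi 3 lay above every Sahiwal animal and Ladakhi 1 and 2 below, Ladakhi 2 at the surrogate value of dim spots on its array. The difference was -0.33 (SE 0.41, limma adjusted p = 0.546), but normexp gave 0.90, a call as higher (adjusted p = 0.00131). DNAJB9 (ERdj4), an inducible J protein that brings HSPA5 to misfolded chains, was on no Ladakhi array well above background with its probe A_73_P132196 (chr4:61879654-61879713, minus strand). Its Sahiwal values ran from -5.47 over a median of -4.96 to -4.89, on 6 of 6 arrays, all of them under the lowest Ladakhi limit of -4.14.

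**Figure D3:**
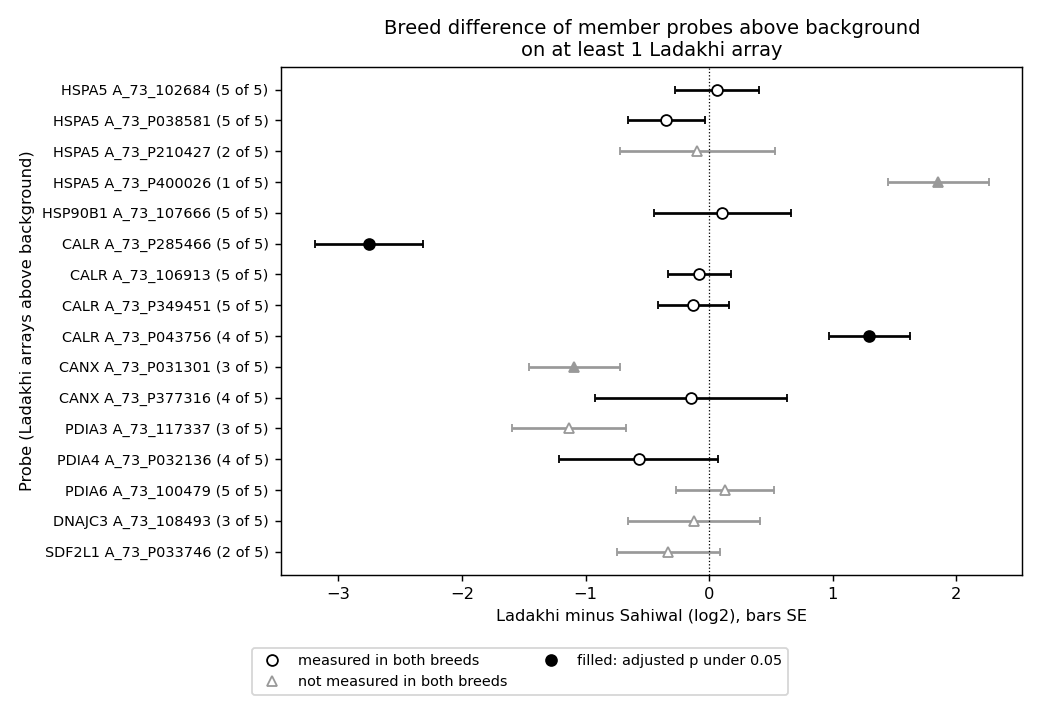
Difference Ladakhi minus Sahiwal (horizontal axis, log2, bars SE) for the probes detected on at least 1 Ladakhi array, with the number of such arrays beside each name. Circles are measured in both breeds, triangles are not, and filled symbols passed an adjusted p of 0.05; the measured calls are CALR A_73_P285466 at -2.75 and CALR A_73_P043756 at 1.30.

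Of the 28 probes, 20 were well above background on all 6 Sahiwal arrays, but 12 were on no Ladakhi array and 6 on only 1 to 3. For all 12 of the former the Sahiwal mean lay below the Ladakhi detection limit, as it did for 3 of the latter. Scanner files give dim spots a common surrogate value on an array, such as -5.26 in Ladakhi 2 for several of these probes. No fold is given for these 12 probes, since the limit itself lies above the Sahiwal level. Of the 17 member probes that were tested but not measured in both breeds, 6 passed the same test (44.6% of all such probes did, and 42.0% of all tested probes), 5 as higher and 1 as lower in Ladakhi. Of the 5, HSPA5 A_73_P400026 was detected on 1 Ladakhi array (difference 1.86, SE 0.41, limma adjusted p = 0.00302) and the others, of CANX and PDIA4, on none, so that their direction is not read.

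Detection in Ladakhi followed the position of the probe along the gene in the 4 genes with at least 3 mapped probes. Distances here are genomic and take in introns. For HSPA5, probes at 0 and 438 bases upstream of the last one were on 5 of 5 Ladakhi arrays, that at 929 bases on 2 and that at 3560 bases on 1, while all were on 6 of 6 Sahiwal arrays. For CALR, probes at 0, 11 and 162 bases were on 5 Ladakhi arrays, that at 937 bases on 4, and those at 2137 and 2192 bases on 0. All CALR probes were above background in every usable Sahiwal spot. For PDIA4, the counts fell from 4 Ladakhi arrays at 0 bases to 0 at 4246 and 11185 bases, beside 6, 5 and 4 Sahiwal arrays. For PDIA6, they were 5 at 0 bases and 0 at 8615 and 8641 bases, where the overlapping probes shown above were on 6 Sahiwal arrays.

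**Figure D4:**
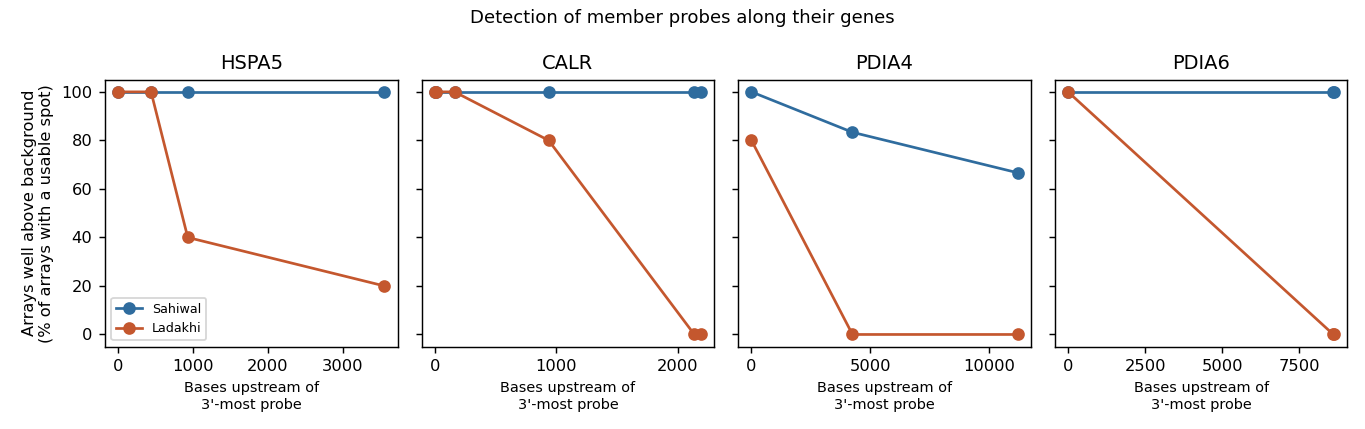
Share of arrays on which each mapped probe of HSPA5, CALR, PDIA4 and PDIA6 was well above background (vertical axis, percent of the arrays with a usable spot) against its genomic distance upstream of the gene's last probe (horizontal axis, bases). The Ladakhi line ends at 20% in HSPA5 and 0% in CALR, PDIA4 and PDIA6, and the Sahiwal line stays at 100% but for PDIA4.

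In these 4 genes the last probe was on at least 4 Ladakhi arrays in 4 cases and the first probe in 0. The same order held over the array: of 4237 genes with at least 3 mapped probes, 21.0% had their last probe on at least 4 Ladakhi arrays and 5.22% their first. In Sahiwal the shares were 65.9% and 32.9%, a lower share for first than for last probes in each breed. The probes of these 4 genes that were on 2 or fewer Ladakhi arrays were also dim in the Sahiwal animals, with means below the Ladakhi limit of -3.50. The part of that limit in the order was not tested.

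The levels of the members were also set against HSPA5 among the 6 Sahiwal animals, the larger group, with the brightest probe detected on all 6 arrays. Over 9 relations, CALR followed HSPA5 most closely (Pearson r = 0.93, exact permutation p = 0.0153, adjusted 0.0875; Spearman rho = 0.77, exact p = 0.103, adjusted 0.308). Without Sahiwal 1 and 4, the animals farthest from the HSPA5 median, r was 0.80. DNAJC3 came next (r = 0.82, exact permutation p = 0.0194, adjusted 0.0875; rho = 0.89, exact p = 0.0333, adjusted 0.263). Over the 4 animals left without the same 2 its r was 0.37, but that choice also narrows the HSPA5 range. Whether the relation rested on these 2 animals therefore cannot be told. Leaving out 1 animal at a time gave r from 0.52 to 0.93 for DNAJC3 and from 0.85 to 0.95 for CALR. SDF2L1 gave r = 0.72 (adjusted exact p = 0.363), and the other members lay between -0.39 for PDIA6 and 0.48 for DNAJB9. None of the 9 passed Benjamini-Hochberg adjustment, and the Ladakhi group of 5 was too small for the same comparison. As a description, the genes most like HSPA5 over these 6 animals, of 9635 compared, were RGS1 (r = 0.991), SIRT1 (r = 0.988) and BAG5 (r = 0.988). CALR ranked 76 in that order.

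Around the chaperones, 110 other genes of the secretory pathway were on the array, in lists of ER folding, ER quality control, ER entry and stress sensing. By their brightest probe 45 were measured in both breeds, of which 3 were higher and 9 lower in Ladakhi. Among all genes read this way, 32.2% passed the test, 17.4% higher and 14.9% lower. This split moved with the scaling: quantile normalization gave 8 higher and 4 lower, and cyclic loess 10 higher and 0 lower. The median difference of all measured probes itself moved with these settings, from -0.04 to 0.17 under quantile normalization, 0.41 under cyclic loess and 0.25 under normexp. Taken relative to that shift, 7, 5 and 10 companion genes were higher.

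ER entry, the machinery that carries chains into the ER, held the largest difference among the companion genes measured in both breeds. Of its 15 measured genes 1 was higher and 4 were lower in Ladakhi, beside 17.4% and 14.9% of all genes read this way. Their median was -0.34, beside -0.03 over all measured genes. SSR4, a subunit of the translocon-associated protein complex, was higher by 1.91 (SE 0.28, limma adjusted p = 0.000301), and its other measured probe gave 1.20. SRP14 of the signal recognition particle was lower by its only probe, at -1.84 (SE 0.49, adjusted p = 0.00883). SRPR, the receptor of that particle, read -1.34 (SE 0.51, adjusted p = 0.0452) by its brightest probe, but its other measured probe gave 2.49. Leaving out any of 8 animals, all but Ladakhi 1 and 2 and Sahiwal 3, ended the SRPR call (adjusted p up to 0.111). Quantile normalization, cyclic loess, normexp, the filter in both breeds, the replicate block and keeping outlier spots also ended it (adjusted p from 0.0540 to 0.265). The mean over its probes, which takes in probes not measured in both breeds, passed as higher instead (0.88, adjusted p = 0.0094). DDOST of the glycosylation enzyme gave 0.70 (SE 0.28, adjusted p = 0.0577). It passed, as higher, under quantile normalization (0.98, adjusted p = 0.00915), cyclic loess (1.18, adjusted p = 0.00689), normexp, the other filters on dim probes, the slide block (adjusted p = 0.0162) and without Ladakhi 1 (adjusted p = 0.0404).

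In ER quality control and degradation, which returns misfolded proteins to the cytosol, 0 of 13 measured genes were higher and 3 lower in Ladakhi. Over all genes read this way the shares were 17.4% and 14.9%. The median of the list was -0.31. SYVN1 (HRD1), the ubiquitin ligase at the exit channel, was lower, with a difference of -1.81 (SE 0.49, limma adjusted p = 0.00918). OS9, the lectin that hands glycoproteins to it, differed by -1.60 (SE 0.47, adjusted p = 0.0145). The mean over each gene's probes, which takes in probes not measured in both breeds, gave 0.24 and 0.29 instead. Cyclic loess ended both calls (adjusted p = 0.0561 for SYVN1 and 0.113 for OS9), as well as that of SRP14 (adjusted p = 0.0617). The E2 enzymes UBE2J2 (0.64, SE 0.28, adjusted p = 0.0798) and UBE2G2 (0.33, SE 0.30, adjusted p = 0.394) did not pass, although UBE2J2 passed under quantile normalization (0.89, adjusted p = 0.0166) and with the slide block (adjusted p = 0.0231).

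The folding list had 12 measured genes, of which 1 was higher and 1 lower in Ladakhi, with a median of 0.22. CNPY3, which helps HSP90B1 fold Toll-like receptors, was higher by 0.92 (SE 0.29, limma adjusted p = 0.0212), a call lost without Ladakhi 1 (adjusted p = 0.0521), with the replicate block (0.96, adjusted p = 0.0586) and with its probes averaged (0.71, adjusted p = 0.0553). ERP29, a PDI relative without the active cysteines, was at -0.97 (SE 0.36, adjusted p = 0.0426). That call was lost without any of Ladakhi 1, 2 or 3 or Sahiwal 1, 2, 4, 5 or 6 (adjusted p up to 0.112). Quantile normalization (-0.72, adjusted p = 0.121), cyclic loess (-0.50, adjusted p = 0.387) and keeping outlier spots (adjusted p = 0.0519) also ended it. GANAB, the glucosidase that trims sugars for calnexin binding, gave -0.63 (SE 0.26, adjusted p = 0.0654), and FKBP11, an ER prolyl isomerase, 1.05 (SE 0.50, adjusted p = 0.107). Both passed with the slide block (adjusted p = 0.0286 and 0.0449). GANAB also passed with normexp (-0.56, adjusted p = 0.0197), the other filters on dim probes, dim signals raised, the value table (-0.78, adjusted p = 0.0320) and without Ladakhi 3. FKBP11 also passed with normexp (1.48, adjusted p = 0.00273) and without Ladakhi 5 or Sahiwal 4. Its probes averaged turned to -1.04 (adjusted p = 0.0704).

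Of the listed ER stress sensors and factors, 5 genes were measured, 1 was higher and 1 lower in Ladakhi, with a median of 0.14. EIF2AK3 (PERK), the kinase that slows translation under ER stress, was lower, with a difference of -1.07 (SE 0.26, limma adjusted p = 0.00479). The breeds did not overlap, which held for 21.5% of all measured probes. That call was lost with its probes averaged (-0.21, adjusted p = 0.533) and under cyclic loess (-0.62, adjusted p = 0.0708). CREB3, a membrane-bound transcription factor of the ER, was higher by 1.14 (SE 0.32, adjusted p = 0.0117), and its other measured probes gave 1.33 and 1.59. ATF6B gave 0.53 (SE 0.24, adjusted p = 0.0919) and passed under quantile normalization (0.79, adjusted p = 0.00639) and with the slide block (adjusted p = 0.0337). DDIT3 (CHOP), the factor tied to cell death under ER stress, gave -0.34 (SE 0.66, adjusted p = 0.702), which turned to 0.50 without Ladakhi 5.

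**Figure D5:**
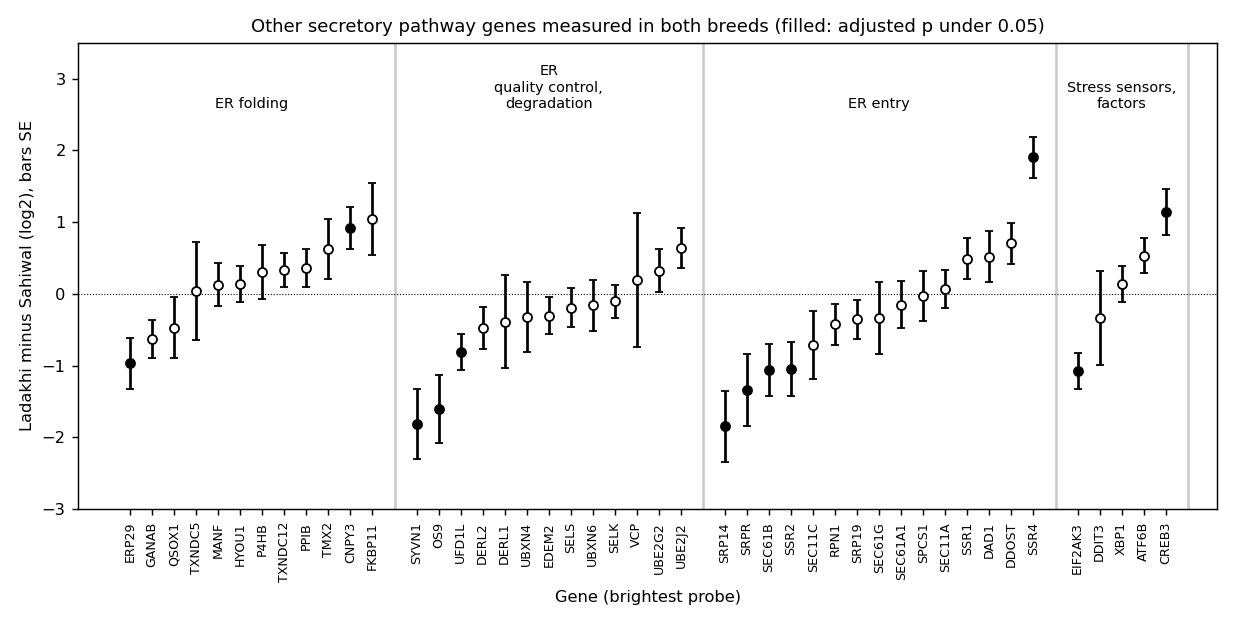
Difference Ladakhi minus Sahiwal (vertical axis, log2, bars SE) of the 45 other secretory pathway genes measured in both breeds, by their brightest probe and grouped in 4 lists, with filled points past an adjusted p of 0.05. In the ER entry list SSR4 stands at 1.91 and SRP14 at -1.84, and most genes of each list lie around 0.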

How the data were processed

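Per the file headers, the authors deposited the output of Agilent Feature Extraction, 1 array per animal, as background-subtracted, dye-normalized spot intensity (gProcessedSignal). The deposited value table of log2 values served as an alternative for the breed comparison only, because its columns matched arrays of the right breed but not of the animal named. Genes and coordinates (HGSC Btau_3.1) came from the Sahiwal scanner files, joined by probe name.

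Control spots were left out and 294 outlier spots set missing; saturated spots were kept and spots of a probe averaged. Levels were log2 intensity minus the array's 75th percentile over the 2576 probes well above background on all 11 arrays. limma 3.58.1 (R 4.3.3) compared 5 Ladakhi with 6 Sahiwal arrays over the 17863 probes that 4 or more arrays of Ladakhi or of Sahiwal animals showed above background, with Benjamini-Hochberg adjustment, and was tested on simulated data. A companion gene was read by its brightest probe. Alternatives varied the scaling, background correction (normexp, offset 50), filters, dim, saturated and outlier spots, slide and replicate blocks, and each animal left out; keeping outlier spots and subtracting the median difference of measured probes were added after seeing the data.

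The text names every member, from each companion list the 2 measured genes with the largest difference in each direction, and the 3 genes most like HSPA5. Members and lists were chosen with earlier results of these data known. Promoter motifs and protein features were not analysed here.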

Additional observations from a re-analysis of the deposited data

Results flagged for a closer look

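Of 35 groups of member values examined by Dixon's test, 4 held an animal far from the rest of its breed, where chance flags about 1 in 20. The values were read as they stand and no cause was tested.

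CANX A_73_P377316 lay at -5.63, the surrogate value of dim spots, in Ladakhi 4, while the other Ladakhi animals lay between -0.99 and 0.08. The scanner's median pixel signals of that spot were 755, 765, 1616, 254 and 1440 in Ladakhi animals 1 to 5. The spot of Ladakhi 4 stood over a local background of 98 and was not well above background.

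PDIA4 A_73_P032136 lay at -5.52, the surrogate value of dim spots, in Ladakhi 1 and between -1.89 and -0.65 in the others. Its median pixel signals were 116, 522, 1292, 535 and 573, the first over a local background of 94.5.

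Among Sahiwal animals, DNAJB9 A_73_P132196 was lowest in Sahiwal 5, at -5.47 against -5.08 to -4.89 in the rest. DNAJC3 A_73_108493 was lowest in Sahiwal 4, at -3.13 against -2.28 to -1.85. HSPA5 A_73_102684 had its lowest Sahiwal value, -0.09, in the same animal.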

How the results depend on the processing

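The called CALR probes A_73_P285466 and A_73_P043756 kept their call and direction in all 16 alternatives and without each animal, the second being open to measurement only if higher in Ladakhi, and among the 9 measured probes no other was called except CANX A_73_P377316 without Ladakhi 4. Leave-one-out gave 1 to 2 member probes higher, 3 to 6 companion genes higher, 6 to 8 lower (9 with all animals), and differences from -0.13 to 0.23 for HSPA5 A_73_102684, -0.44 to 0.37 for HSPA5 A_73_P210427, -0.28 to 0.53 for HSP90B1, -0.16 to 0.0022 for CALR A_73_106913, -0.55 to 0.88 for CANX A_73_P377316, -0.98 to 0.24 for PDIA4 A_73_P032136, -0.50 to 0.36 for DNAJC3 and -0.65 to 0.50 for DDIT3. Over all tested probes, 7503 passed, beside 3744 with cyclic loess, 13428 with normexp (12745 relative to its shift), 34530 without a filter on dim probes, 1318 with the filter in both breeds and 12578 with dim signals raised; measured probes passing rose from 1332 to 2021 with normexp. The calls of measured probes were 54.1% higher in Ladakhi, and 75.2%, 86.2%, 69.9% and 43.2% under quantile normalization, cyclic loess, normexp and the value table, whose shift of all measured probes was -0.19.

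Companion genes passing numbered 24 with normexp (21 relative) instead of 12. Those higher numbered 8 with quantile normalization (7 relative), 10 with cyclic loess (5 relative), 15 with normexp (10 relative), 7 with slide as a block, and 5 with no filter, with the filter in both breeds, with dim signals raised and with a gene's probes averaged; those lower numbered 4 with quantile normalization and 0 with cyclic loess. That probe mean also gave -1.04 for FKBP11, 0.24 for SYVN1, 0.29 for OS9, -0.86 for UBE2G2 and 0.88 for SRPR. Among these, UBE2G2 passed as lower (limma adjusted p = 0.0145) and SRPR as higher (adjusted p = 0.0094).

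Signs of differences that did not pass the test turned as follows. Among the turned values, those of HSPA5 A_73_P210427 and SDF2L1 under normexp passed as higher in Ladakhi (limma adjusted p = 0.00271 and 0.00131). Both also passed relative to the normexp shift (adjusted p = 0.0113 and 0.0129). Cyclic loess gave 0.11 for HSPA5 A_73_P038581, 0.35 for CALR A_73_106913, 0.25 for CALR A_73_P349451, 0.33 for CANX A_73_P377316, 0.27 for HSPA5 A_73_P210427, 0.33 for DNAJC3, 0.027 for SDF2L1 and 0.12 for DDIT3, and relative to its shift -0.20 for PDIA6. Normexp gave -0.11 for HSPA5 A_73_102684, 0.52 for HSPA5 A_73_P038581, 0.25 for CANX A_73_P377316, 1.35 for HSPA5 A_73_P210427, 0.34 for DNAJC3, 0.90 for SDF2L1 and 0.53 for DDIT3; relative to its shift these were -0.35, 0.27, 0.0025, 1.10, 0.10, 0.66 and 0.28, with -0.083 for PDIA6. Quantile normalization gave 0.023 for CALR A_73_106913, 0.14 for CALR A_73_P349451, 0.22 for HSPA5 A_73_P210427 (0.047 relative) and 0.16 for DNAJC3. Dim signals raised gave 0.32 for CANX A_73_P377316, 0.58 for HSPA5 A_73_P210427, 0.15 for DNAJC3, 0.61 for SDF2L1 and 0.0030 for DDIT3. The slide as a random block gave 0.10 for HSPA5 A_73_P210427, and the value table -0.083 for HSPA5 A_73_102684, -0.042 for HSP90B1 and -0.30 for PDIA6 (-0.10 relative). PDIA6 was -0.0053 with the percentile over all probes and -0.10 with outlier spots kept. Why these values moved was not tested.

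Replicate numbers did not pair the animals: over 5 pairs, deviations correlated from -0.05 to 0.02, 0 over 0.1. The replicate block gave 7 companion genes, 5 of them lower. Correlations with HSPA5 turned sign on leaving out animals, 1 animal at a time from -0.35 to 0.34 for HSP90B1, -0.34 to 0.68 for CANX, -0.055 to 0.60 for PDIA3 and -0.032 to 0.52 for PDIA4; without Sahiwal 1 and 4 they were -0.76, -0.61, 0.61 and -0.21, and 1 relation, DNAJC3, passed with the percentile over all probes. The dimmer Ladakhi arrays limit these comparisons to probes above their background.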
